A study of Homo sapiens with 30 samples.

Results

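The genes described here are 10 regulators of the step from G1 into S phase, chosen by name: the CDK inhibitor genes CDKN1A, CDKN1B, CDKN1C, CDKN2A, CDKN2B, CDKN2C and CDKN2D, the pocket protein gene RB1, the cyclin gene CCND1, and MTAP, the neighbour of CDKN2A. They are 10 of 20087 protein-coding genes on the autosomes and X, and all 10 were found in the annotation. The data were chromatin immunoprecipitation followed by sequencing (ChIP-seq) in MDA-MB-231, an established human triple-negative breast cancer line. Parental cells were profiled for SAP30, SIN3A and SIN3B, and RNA polymerase II (Pol II), H3K4me3 and H3K9Ac were measured both in these cells and in SAP30-KO1, a SAP30 knockout made with CRISPR/Cas9 by mixing single-cell knockout clones. The 9 groups had 2 libraries each, which gives 18 lists of summits, a summit being the single base given by MACS2 as the highest point of a peak. Nothing in the labels says that the libraries of a group came from separate cultures, so p-values measure only the spread between these libraries.

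The lists held 10861 to 54622 summits, and the sequencing depth behind them is unknown, so no counting interval is given. Replicates had 76.1% to 93.9% of their summits within 1000 bp of each other. Of the 4 genes that mark mesenchymal breast cancer lines (VIM, CD44, AXL and CAV1), all 4 had a promoter summit in all 18 lists, whereas GATA3, which marks luminal cells, PTPRC and CD3E of blood and ALB of liver had none. Of the other luminal markers, KRT18 and ERBB2 had a promoter summit in all 4 Pol II lists. ESR1, PGR and FOXA1 had none for Pol II but had one in all 4 H3K4me3 lists. PGR and FOXA1 also had SAP30 summits in both lists, and ESR1 had H3K9Ac summits in both SAP30-KO1 lists and in neither parental one. No SAP30 list from SAP30-KO1 was analysed here. The SAP30 gene kept a promoter summit of Pol II, H3K4me3 and H3K9Ac in every SAP30-KO1 library, and a peak at the promoter does not check the knockout.

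Cells leave G1 when cyclin D with CDK4 or CDK6, and then cyclin E with CDK2, phosphorylate RB1 and free E2F factors to switch on S phase genes. The INK4 inhibitors p16, p15, p18 and p19, encoded by CDKN2A, CDKN2B, CDKN2C and CDKN2D, block CDK4 and CDK6, and the CIP/KIP inhibitors p21, p27 and p57, encoded by CDKN1A, CDKN1B and CDKN1C, act mainly on CDK2 complexes. CDKN2A also encodes ARF, an activator of p53, from a start site of its own, and MTAP encodes an enzyme of methionine salvage. SAP30 is a subunit of the SIN3 corepressor complex, whose scaffold is SIN3A or SIN3B and which carries histone deacetylases. H3K4me3 and H3K9Ac are marks of active promoters. MDA-MB-231 is known for a homozygous deletion at chromosome 9p21 that takes in CDKN2A.

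The promoter sequences below come from promoters that had summits and from promoters that had none. They are 200 bases of the GRCh37 genome each, from 150 bases before an annotated start site to 50 after it (counting the start site), on the strand of the gene named in the text, and CpG dinucleotides are in capitals. The first lies between the divergent start sites of CDKN2C and FAF1, which are 478 bp apart, and is read on the FAF1 strand (chr1:51425890-51426089, minus strand). CDKN2D (chr19:10679606-10679805, minus strand) and CDKN1A (chr6:36646341-36646540, plus strand) follow as promoters with SAP30 summits.
CDKN2C and FAF1, shared upstream promoter: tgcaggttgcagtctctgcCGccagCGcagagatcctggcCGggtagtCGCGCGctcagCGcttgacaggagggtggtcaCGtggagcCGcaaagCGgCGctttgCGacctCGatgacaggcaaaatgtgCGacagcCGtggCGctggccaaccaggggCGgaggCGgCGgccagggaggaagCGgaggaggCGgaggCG
CDKN2D: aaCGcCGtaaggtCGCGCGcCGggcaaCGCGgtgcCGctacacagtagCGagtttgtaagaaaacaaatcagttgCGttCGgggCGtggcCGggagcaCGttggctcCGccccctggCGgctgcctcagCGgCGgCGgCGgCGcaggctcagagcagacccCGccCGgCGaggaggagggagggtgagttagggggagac
CDKN1A: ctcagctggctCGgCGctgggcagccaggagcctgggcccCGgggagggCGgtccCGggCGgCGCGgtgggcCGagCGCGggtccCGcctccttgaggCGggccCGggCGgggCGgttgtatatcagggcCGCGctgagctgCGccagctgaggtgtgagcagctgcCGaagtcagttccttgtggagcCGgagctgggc
The next 4 come from 9p21 and had no summit in any list. They are the p16 promoter (chr9:21974807-21975006, minus strand) and the ARF promoter (chr9:21995251-21995450, minus strand) of CDKN2A, and the promoters of CDKN2B (chr9:22009255-22009454, minus strand) and MTAP (chr9:21802485-21802684, plus strand).
CDKN2A, p16 promoter: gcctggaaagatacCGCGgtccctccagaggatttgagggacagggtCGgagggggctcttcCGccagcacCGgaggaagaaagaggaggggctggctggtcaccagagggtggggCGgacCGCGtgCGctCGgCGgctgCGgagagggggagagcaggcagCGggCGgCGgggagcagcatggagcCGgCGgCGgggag
CDKN2A, ARF promoter: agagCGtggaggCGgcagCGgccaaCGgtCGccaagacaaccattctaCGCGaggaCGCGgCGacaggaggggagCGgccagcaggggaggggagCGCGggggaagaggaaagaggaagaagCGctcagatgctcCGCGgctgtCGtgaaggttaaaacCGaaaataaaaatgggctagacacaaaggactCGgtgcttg
CDKN2B: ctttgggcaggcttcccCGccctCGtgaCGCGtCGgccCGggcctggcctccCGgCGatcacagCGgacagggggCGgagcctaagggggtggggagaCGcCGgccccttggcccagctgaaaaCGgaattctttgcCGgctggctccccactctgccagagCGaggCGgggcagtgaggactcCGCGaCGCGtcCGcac
MTAP: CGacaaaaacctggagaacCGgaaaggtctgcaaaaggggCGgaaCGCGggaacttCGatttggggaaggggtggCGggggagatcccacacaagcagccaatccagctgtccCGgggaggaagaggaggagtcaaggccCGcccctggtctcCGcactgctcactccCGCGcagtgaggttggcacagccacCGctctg
The printed sequences of promoters with summits held 22, 25 and 21 CpG, and those of promoters without held 18, 19, 21 and 13. The SAP30 summits of CDKN2D (chr19:10680052 and chr19:10680020) lay outside the printed bases. So did the SAP30 summit of CDKN1A in replicate 2 (chr6:36646592). The GC box GGGCGG, searched on both strands from 250 bases before to 50 bases after the main start site, was in all 10 members' windows and in 61.5% of 19808 genes. The E2F motif TTTCCCGC was in the RB1 window alone among the members (2.25% of genes), and TTTGGCGC was in the CCND1 window alone (0.863% of genes). CCAAT was in 5 of the 10 windows (CDKN1B, CDKN1C, CDKN2C, CDKN2D and MTAP) and in 36.0% of genes.

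CDKN2A (chr9:21967751-21995300), CDKN2B (chr9:22002902-22009304) and MTAP (chr9:21802635-21937650) had no summit of SAP30, SIN3A, SIN3B, Pol II, H3K4me3 or H3K9Ac, neither at a start site, nor in the gene body, nor within 50 kb, in any of the 18 lists. Of all protein-coding genes, 1868 of 20087 (9.30%) had no summit of any list within 50 kb. In the 300 bases searched CDKN2A had 26 CpG, CDKN2B 25 and MTAP 15, and 43.7%, 46.3% and 67.8% of genes had as many or more. With the lowest of these, 15, taken as a cut after the values were known, 388 of 13427 genes (2.89%) with at least that many had no summit nearby, against 21.6% of the 6381 genes with fewer. The other 7 members each had summits within 50 kb in every list. Among them was CDKN2C, whose window at the main start site had 11 CpG, the fewest of the members and below that cut.

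The stretch without summits reached far beyond the 3 genes. No list had a summit between chr9:20732688 and chr9:25677326, a length of 4.94 Mb, within a chromosome that held 22075 summits over the 18 lists. The left end lay 1070 kb before MTAP and the right end 3668 kb after CDKN2B. In single lists the stretch measured 4.94 to 6.21 Mb, and it was 4.99 Mb in each SAP30-KO1 list. Both ends were set by H3K9Ac parental replicate 2, the left one by a weak summit at rank 87.4% of its list. Among 156 summit-free stretches of at least 1 Mb without an assembly gap it was the longest, and the next, on chromosome 3, measured 2.86 Mb. A further 6 stretches were longer but held assembly gaps.

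**Figure D1:**
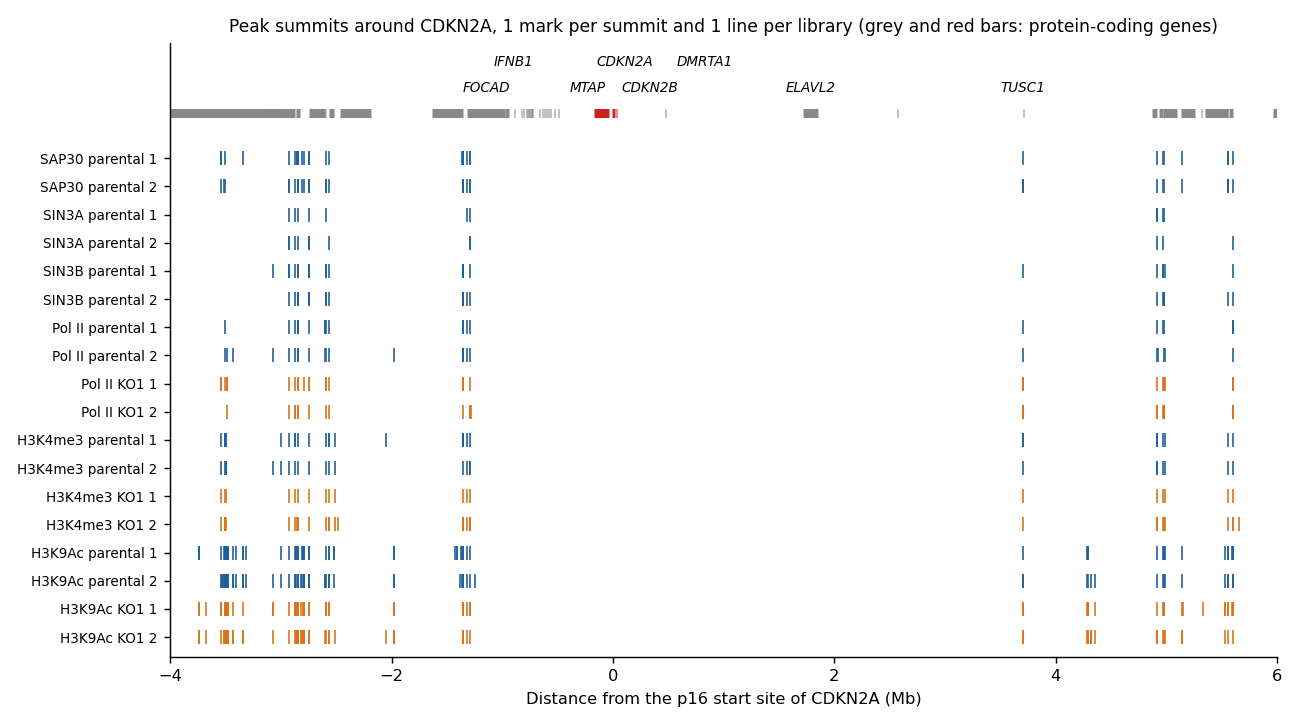
Peak summits on chromosome 9 by their distance in Mb from the p16 start site of CDKN2A (x axis), with 1 line of marks for each of the 18 libraries (blue parental, orange SAP30-KO1) and protein-coding genes as bars above (CDKN2A, CDKN2B and MTAP in red). All 18 lines are empty across the 4.94 Mb around the 3 genes and hold marks again at FOCAD on the left.

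The summit-free stretch held 24 protein-coding genes. They were HACD4, 16 type I interferon genes (IFNB1, IFNW1, IFNE and 13 IFNA genes), KLHL9, MTAP, CDKN2A, CDKN2B, DMRTA1, ELAVL2 and IZUMO3, and the antisense RNA gene CDKN2B-AS1 lay there too. The interferon genes had 1 to 3 CpG in their windows where one was read, and such genes are silent in most resting cells. HACD4 (24 CpG), KLHL9 (19 CpG), a ubiquitin ligase adaptor, DMRTA1 (16 CpG) and ELAVL2 (20 CpG), a neuronal RNA-binding protein, had at least 15 CpG. The 3 members did too. These 7 were among the 388 such genes with no summit nearby, which follows from their place in the stretch. Only 1 other stretch of at least 1 Mb held more genes, 34 in 1.29 Mb of chromosome 11. On the left, FOCAD, whose body reaches into the stretch, had a promoter summit in 18 of 18 lists, and on the right TUSC1 had one in 15 of 18. The lists hold no copy number, and DNA content at 9p21 was not tested.

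**Figure D2:**
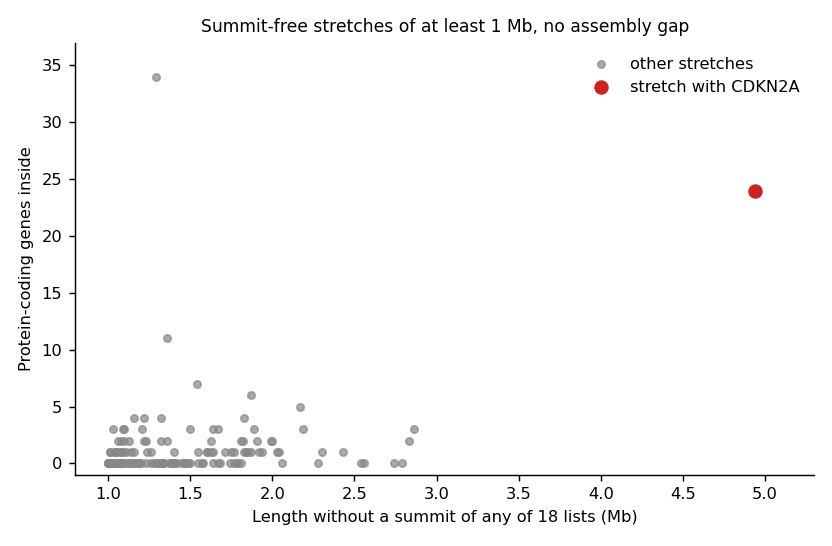
Each point is a stretch of at least 1 Mb without a summit of any of the 18 lists and without an assembly gap, by its length in Mb (x axis) and the protein-coding genes inside it (y axis). The stretch with CDKN2A, in red, stands at 4.94 Mb and 24 genes, and no other reaches 3 Mb.

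Each profile had promoter summits at most of the 7 members outside 9p21 in parental cells. A gene was counted when both parental libraries had a summit within 1000 bp of an annotated start site. Pol II was counted at 7 of the 10 members, which are all 7 outside 9p21, beside 57.7% of all protein-coding genes. SAP30 was counted at 6 members (61.2% of all genes), SIN3A at 6 (31.5%) and SIN3B at 6 (51.7%). H3K9Ac was counted at 6 (61.4%) and H3K4me3 at 5 (63.8%). Out of 10 members the counts were near these shares for SAP30, SIN3B and H3K9Ac. They were below the share for H3K4me3 and above it for Pol II and SIN3A, and these differences were not tested. CDKN2A, CDKN2B and MTAP were 3 of the members not counted in each profile. Of 25 other G1 control genes, among them cyclins, CDKs, E2F factors and ubiquitin ligase subunits, 23 were counted for SAP30, 15 for SIN3A, 24 for SIN3B, 23 for Pol II, 24 with H3K4me3 and 23 with H3K9Ac.

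Some members had a summit in 1 parental library or just outside the window. CCND1 had a SAP30 summit at rank 20.9% in replicate 2 and its nearest one 1837 bp away in replicate 1. CDKN1B had a SIN3A summit in replicate 2 alone, at rank 73.4%, with its nearest one in replicate 1 as far as 8090 bp away, and CDKN1C a SIN3B summit in replicate 1 alone, at rank 80.1%, with the nearest in replicate 2 at 1612 bp. For H3K4me3 the nearest CDKN1A summits lay 1234 and 1280 bp from a start site in parental cells. The nearest H3K9Ac summit of CCND1 in replicate 2 lay 1018 bp away. With a window of 3000 bp the H3K4me3 count included CDKN1A and CCND1.

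**Figure D3:**
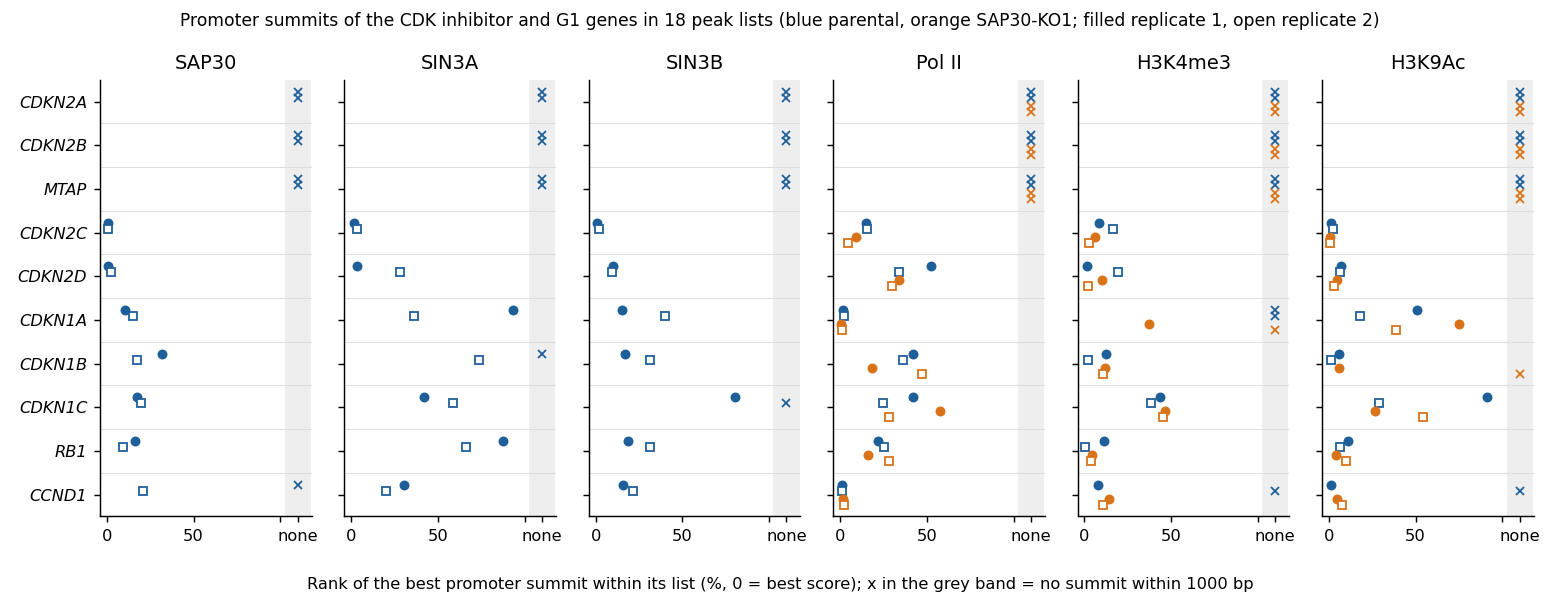
Rank of the best promoter summit of each of the 10 genes within its list (x axis, percent of the list, 0 is the best score), by profile, for parental (blue) and SAP30-KO1 (orange) libraries, replicate 1 filled and replicate 2 open; crosses mark libraries with no summit within 1000 bp. CDKN2A, CDKN2B and MTAP show crosses alone, and CDKN2C lies at 0.450% and 0.844% for SAP30.

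Among the INK4 genes that had summits, CDKN2C (chr1:51426417-51440306) had the best corepressor summits by mean rank over the 2 libraries, while in SAP30 replicate 1 alone CDKN2D ranked slightly better. Ranks are given as the percent of the list with a better score, so that 0% is the strongest summit of a library. The SAP30 summits of CDKN2C stood at 0.844% and 0.450%, those of SIN3A at 1.32% and 3.55%, and those of SIN3B at 0.690% and 1.80%. Each of the 6 was thus among the top 4% of its list, and no other member reached this in all 6 lists. These summits lay upstream of the first CDKN2C start site, in the sequence shared with FAF1, and they cannot be assigned to either gene.

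CDKN2C has further start sites downstream of the shared promoter. At the start site at chr1:51434378, within the gene and 154 bp from a long noncoding RNA gene, SAP30 had a summit at 10.4% in replicate 1 and none in replicate 2, SIN3A had summits at 38.4% and 18.3%, and SIN3B at 9.16% and 18.6%. Pol II ranked better there than at the shared promoter in parental cells, with 14.9% and 15.5% against 28.9% and 27.0%. H3K9Ac did too, with 1.51% and 2.17% against 8.67% and 12.4%. At the main annotated start site, chr1:51435917, whose window overlaps the previous one, SAP30 stood at 37.8% and 15.1%, SIN3A at 7.38% and 43.0%, and SIN3B at 9.16% and 76.0%. Pol II had no summit there in either parental library but had 3 and 2 in the SAP30-KO1 libraries, the best at 57.2% and 22.7%. How often other single start sites changed in this way was not counted. In parental cells the best summits of the corepressor proteins thus lay at the shared promoter in all 6 lists, and those of Pol II at chr1:51434378 in both.

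**Figure D4:**
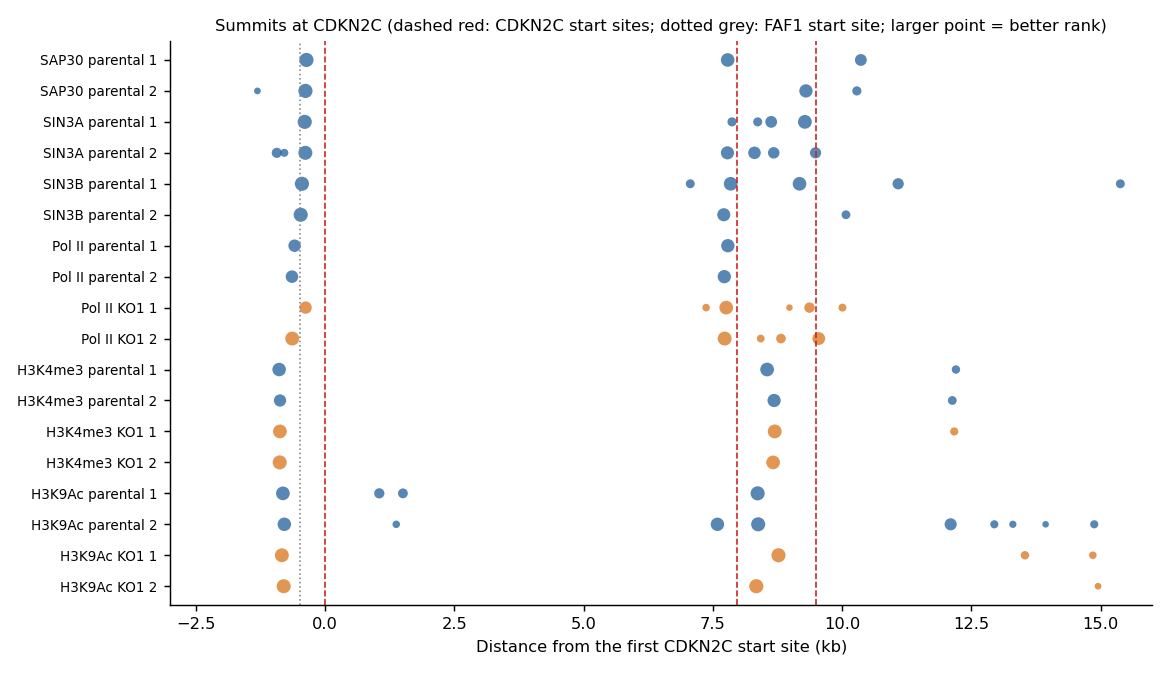
Summits at CDKN2C by distance in kb from its first start site (x axis), 1 line for each of the 18 libraries (blue parental, orange SAP30-KO1), with larger points for better ranks, dashed lines at 3 CDKN2C start sites and a dotted line at the FAF1 start site. SAP30, SIN3A and SIN3B have large points just left of 0, and Pol II has more points near the downstream start sites in SAP30-KO1 than in parental cells.

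CDKN2D (chr19:10677136-10679735) was the next of the INK4 genes. Its SAP30 summits stood at 0.776% and 2.51%, 317 and 285 bp from a start site, and SIN3B stood at 10.1% and 9.55%. SIN3A was far apart in its 2 libraries, at 3.27% and 28.3%. Pol II ranked in the middle of its lists, at 52.5% and 33.8%, whereas H3K9Ac stood at 6.97% and 6.27%.

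Of the CIP/KIP genes, CDKN1A (chr6:36644237-36655114), a p53 target, had strong Pol II and weaker corepressor summits. Its Pol II summits stood at 1.48% and 2.54% in parental cells, 10 and 24 bp from a start site. SAP30 stood at 10.7% and 15.3%, SIN3B at 15.1% and 40.0%, and SIN3A at 93.1% and 36.0%. The summits lay at the downstream start sites, near chr6:36646487, and no list had one within 1000 bp of the upstream start sites near chr6:36644237. The lncRNA gene DINOL starts 151 bp from the downstream sites on the other strand, so that Pol II summits there cannot be assigned to either transcript.

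CDKN1B (chr12:12838432-12875303) had SAP30 summits at 32.0% and 17.4% and SIN3B summits at 17.1% and 31.3%. Its Pol II stood at 41.8% and 36.4%, while H3K4me3 stood at 12.2% and 1.96% and H3K9Ac at 5.64% and 1.01%. CDKN1C (chr11:2904443-2907005), an imprinted gene, had the most CpG of the members, 48 in its window. Its SAP30 summits stood at 17.3% and 19.7%, its Pol II at 41.8% and 24.9% and its H3K4me3 at 43.6% and 38.3%. H3K9Ac at CDKN1C differed widely between the libraries, at 91.3% and 28.7%.

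RB1 (chr13:48877880-49173572) shares its start region with the lncRNA gene RB1-DT, whose start site is 255 bp away. SAP30 stood at 16.3% and 9.28% there, SIN3B at 18.5% and 31.3%, and SIN3A near the end of its lists at 87.6% and 66.1%. H3K4me3 stood at 11.2% in replicate 1 and 0.230% in replicate 2. CCND1 (chr11:69455924-69469242), which encodes cyclin D1, had the best parental Pol II summits of the members, at 1.37% and 1.26%, with SIN3A at 30.6% and 20.1% and SIN3B at 15.8% and 21.3%. By mean rank over 2 libraries SAP30 was ordered CDKN2C (0.647% ± 0.279, SD), CDKN2D (1.64% ± 1.23), RB1 (12.8% ± 4.99), CDKN1A (13.0% ± 3.25), CDKN1C (18.5% ± 1.68) and CDKN1B (24.7% ± 10.3). The libraries of CDKN2C and CDKN2D overlapped, as did those of RB1 with CDKN1A and of CDKN1C with CDKN1B, but both INK4 genes stood ahead of the other 4 in each library. For CDKN2C this order rests on the summits shared with FAF1. At its start site at chr1:51434378 SAP30 stood at 10.4% in replicate 1, with no summit in replicate 2. At chr1:51435917 it stood at 37.8% and 15.1%, behind RB1 in both libraries.

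The knockout comparison asks whether loss of SAP30 changed Pol II or histone marks at these promoters. No member lost or gained a promoter peak, where lost means a summit in both parental and neither SAP30-KO1 library and gained the reverse. Across all protein-coding genes a Pol II peak was lost at 1.34% and gained at 0.134%, H3K4me3 was lost at 0.916% and gained at 0.105%, and H3K9Ac was lost at 0.423% and gained at 0.329%, so that a count of 0 among 10 members was near these shares. None of the 25 other G1 control genes lost or gained a peak either. CDKN1B came nearest for H3K9Ac, with summits 176 and 204 bp from a start site in parental cells but 517 and 2744 bp away in SAP30-KO1. With a window of 500 bp it was counted as lost.

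Ranks were compared for the members with a summit in all 4 libraries of a mark, which were 7 with Pol II and 5 with either histone mark. Each rank was turned into a normal score, in which a better rank is a higher value, and limma was fitted across all genes with summits in all 4 libraries. It called no member for any mark. Across all genes the calls were 0 of 10702 in the Pol II fit (0%), 0 of 12525 with H3K4me3 (0%) and 2 of 12042 with H3K9Ac (0.0166%), with unadjusted p under 0.05 at 827, 991 and 966 genes. The 2 H3K9Ac genes, named after their values were seen, were ARID1B and STOM, neither of them a G1 gene on the lists used. Without Pol II SAP30-KO1 replicate 1 limma called 707 genes, and without replicate 2 it called 145, none of them members. A missed threshold with 2 libraries a group does not show that the promoters were alike.

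The ranks of parental and SAP30-KO1 libraries did not overlap at 3 of 7 Pol II members (39.6% of all genes), 2 of 5 with H3K4me3 (39.7%) and 2 of 5 with H3K9Ac (38.5%), which is near the background. The median change of rank over the members was -1.75 percentage points (Pol II), -1.73 with H3K4me3 and -1.67 with H3K9Ac, a negative change being an improvement, where the medians over all genes were 1.48, 2.09 and 0.311. Each of the member medians was the value of RB1, whose libraries overlapped for every mark. The members that improved in mean rank numbered 5 of 7, 3 of 5 and 4 of 5, beside 42.3%, 38% and 45.9% of all genes tested. H3K4me3 at RB1, counted here as improved, went the other way on the fitted score (-0.27 ± 0.58, SE, adjusted p = 0.934, limma). The histone mark counts leave out the members outside 9p21 without a summit in all 4 libraries. With a window of 3000 bp these had worse mean ranks in SAP30-KO1. H3K4me3 changed by 2.2 at CDKN1A and 3.69 at CCND1, beside a median of 2.13 over all genes. H3K9Ac changed by 17.9 at CDKN1B and 4.75 at CCND1, beside a median of 0.338.

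Among the members tested in the 1000 bp window, CDKN2C had the lowest p for each mark, and its values moved towards better ranks each time. Its Pol II ranks went from 14.9% and 15.5% to 8.93% and 4.46%, a score difference of 0.49 ± 0.27 (SE, adjusted p = 0.691, limma). Its H3K4me3 ranks went from 8.34% and 16.3% to 6.02% and 2.90% (0.54 ± 0.23, adjusted p = 0.664, limma). Its H3K9Ac ranks went from 1.51% and 2.17% to 0.852% and 0.389% (0.43 ± 0.19, unadjusted p = 0.0481, adjusted p = 0.617, limma). The groups did not overlap in any of these, although the H3K4me3 rank of 2.90% belonged to the shared FAF1 side and the downstream summit of that library stood at 8.57%, inside the parental range. Other genes of the 1p arm shifted by a median of -0.251 (Pol II), 0.700 (H3K4me3) and -0.594 (H3K9Ac). H3K9Ac at CDKN1B and CCND1 was compared only with a window of 3000 bp, where both had worse mean ranks in SAP30-KO1. Both also had a lower unadjusted p there than CDKN2C had for H3K9Ac. CDKN1B went from 5.64% and 1.01% to 5.62% and 36.9% (-0.99 ± 0.39, unadjusted p = 0.0304, adjusted p = 0.549, limma), and CCND1 is given below.

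At CDKN1A the Pol II rank went from 1.48% and 2.54% to 0.640% and 1.10%, without overlap (0.33 ± 0.26, adjusted p = 0.766, limma). H3K9Ac at CDKN1A overlapped between the groups, at 51.0% and 18% in parental cells and 74.8% and 38.7% in SAP30-KO1. H3K9Ac at CDKN2D went from 6.97% and 6.27% to 4.98% and 2.82%, without overlap (0.27 ± 0.18, adjusted p = 0.750, limma). H3K4me3 at CDKN1C went from 43.6% and 38.3% to 46.7% and 45.2%, the one histone mark comparison in the 1000 bp window in which both SAP30-KO1 libraries ranked worse than both parental ones (-0.13 ± 0.15, adjusted p = 0.870, limma). At RB1 the libraries overlapped for all 3 marks, with Pol II at 22% and 25.5% in parental cells and 16% and 28.1% in SAP30-KO1.

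CCND1 lies on the long arm of chromosome 11, whose genes as a whole ranked worse in SAP30-KO1. Its Pol II rank went from 1.37% and 1.26% to 1.78% and 2.01%, without overlap (-0.14 ± 0.25, adjusted p = 0.895, limma), while 401 other genes of the arm shifted by a median of 9.94 percentage points and 84.8% of them shifted that way. With the window of 3000 bp, H3K9Ac at CCND1 went from 1.08% and 1.70% to 4.48% and 7.79% (-0.65 ± 0.19, unadjusted p = 0.00726, adjusted p = 0.486, limma), beside an arm median of 5.12. H3K4me3 at CCND1 in that window went from 8% and 9.43% to 14% and 10.8% (adjusted p = 0.802, limma), beside an arm median of 8.45. The part of the arm in these values was not tested.

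**Figure D5:**
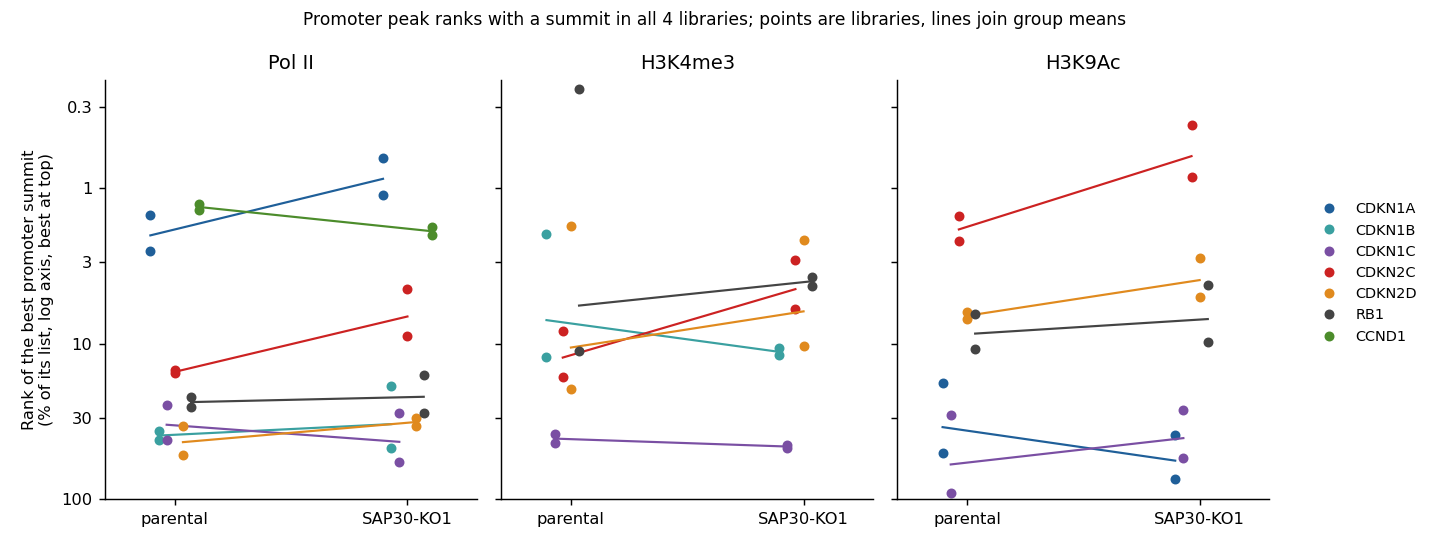
Rank of the best promoter summit in percent of its list (y axis, log scale, best at the top) in parental and SAP30-KO1 libraries for the members with a summit in all 4 libraries of Pol II, H3K4me3 or H3K9Ac; points are single libraries and lines join the group means. The CDKN2C lines rise in all 3 panels, and limma called no member.

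Summits were also counted around each gene, in the body and within 50 kb of it. With 2 libraries against 2 an exact permutation test cannot go below p = 0.333. Pol II summits near CDKN2C numbered 3 and 4 in parental cells and 9 and 9 in SAP30-KO1, and near CDKN1B they numbered 6 and 5 against 9 and 14 (both p = 0.333, exact permutation test, two-sided). These 2 of 10 members had more summits in both SAP30-KO1 libraries, as did 13.7% of all genes. The promoter windows of CDKN2C held 2 and 2 of the Pol II summits in parental cells and 6 and 5 in SAP30-KO1. The Pol II lists themselves held 20736 and 23002 summits in parental cells and 23342 and 22123 in SAP30-KO1, and with lists cut to equal length, an alternative chosen after seeing the data, the members counted stayed 2.

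CCND1 had fewer Pol II summits within 50 kb in both SAP30-KO1 libraries, with 14 and 10 in parental cells and 9 and 9 in SAP30-KO1, and was 1 of 10 members, beside 8.18% of all genes. Its H3K4me3 summits went from 4 and 3 to 2 and 2, again the 1 member so counted (8.04% of all genes). No member gained H3K4me3 or H3K9Ac summits in this way (3.87% and 5.77% of all genes). H3K9Ac summits were fewer near CDKN1C alone, from 14 and 13 to 12 and 12, where 13.0% of all genes had fewer. Each of these has p = 0.333 by the exact permutation test. CDKN2A, CDKN2B and MTAP had counts of 0 in all 12 libraries of the 3 marks.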

How the data were processed

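ChIP-seq was performed by the authors on cross-linked, sonicated chromatin. Per the submitters' processing notes, reads were checked with FastQC 0.11.2, aligned with Bowtie2 2.3.3.1 to hg19 and handled with Picard, and peaks were called in each library with MACS2 2.1.0. The deposited lists give 1-bp summits with the −log10 q-value, from which depth cannot be read. Control libraries were not used here. Start sites were those of basic transcripts in GENCODE release 44 lifted to GRCh37. Summits were ranked within a list by the deposited score, and each gene was given the best one no more than 1000 bp from its start sites. Normal scores of ranks were fitted with limma 3.58.1 (R 4.3.3) by mark, 2 against 2 libraries, with Benjamini-Hochberg adjustment over all genes with summits in all 4 libraries. The fit was tested on simulated data. Members and lists were chosen with earlier results of these data known. The rule for naming genes took the 10 members, the protein-coding genes and CDKN2B-AS1 of the 9p21 stretch, and the first gene with a promoter peak at each side of it. It took other G1 genes only if called, lost or gained, and none were. The other G1 genes named with values, and ARID1B and STOM, were picked after their values were seen. Alternatives were other windows, start sites, rank scales and list cuts, the replicate number as a block, and each library left out in turn.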

Additional observations from a re-analysis of the deposited data

How the results depend on the processing

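CDKN2A, CDKN2B and MTAP had no summit within 25, 50 or 100 kb under any alternative run, and limma called no member under any. The members counted in parental cells varied with the window, start sites and list cut, from 5 to 7 for SAP30, 3 to 7 for SIN3A, 5 to 7 for SIN3B, 6 to 7 for Pol II, 3 to 7 for H3K4me3 and 4 to 7 for H3K9Ac. More than 1.5 times from the main count were SIN3A in the better-ranked 50% of each list (3), H3K4me3 with a window of 500 bp (3), and H3K9Ac losses with that window (1, CDKN1B). With 1 library left out in turn, the members counted as gained for H3K4me3 ranged from 0 to 1, and those lost and gained for H3K9Ac each from 0 to 1. For H3K4me3 the gained member was CCND1 without parental replicate 1 and CDKN1A without SAP30-KO1 replicate 2. For H3K9Ac, CDKN1B was lost without SAP30-KO1 replicate 1 and CCND1 was gained without parental replicate 1.

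Over all genes, the calls rested on the filter and the scale. With genes lacking a summit set to the worst rank, limma called 261 genes in the Pol II fit, 185 with H3K4me3 and 128 with H3K9Ac, and with quantile-normalized log2 scores it called 142 for H3K4me3 and 1 for H3K9Ac. For H3K9Ac it called 1 with a window of 3000 bp, 1 with ranks among the genes tested and 0 with the 5′-most start site. Leaving out single libraries gave 0 to 707 calls for Pol II and 10 to 33 for H3K9Ac. The cause was not tested. Score deviations of same-numbered libraries were hardly correlated (0.014, -0.009 and -0.006). The labels do not say whether these libraries were prepared as pairs. The replicate block gave 1 call in the Pol II fit, 0 with H3K4me3 and 2 with H3K9Ac, none of them members.

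Uncalled score differences changed sign as follows. With a window of 3000 bp H3K9Ac became -0.06 at CDKN1C and 0.05 at CDKN1A. With libraries left out, Pol II ranged from -0.64 to 0.14 at CDKN1C, -0.21 to 0.61 at CDKN1B and -0.13 to 0.28 at RB1, H3K4me3 from -0.85 to 0.05 at CDKN1B, -1.08 to 0.54 at RB1 and -0.46 to 0.78 at CDKN2D, and H3K9Ac from -0.31 to 1.61 at CDKN1C and -0.08 to 0.35 at RB1. Those of CDKN2C kept their sign in every setting run.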

Other observations

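The 25 other G1 control genes were compared between SAP30-KO1 and parental cells in the same fits, and limma called none for Pol II (22 tested), H3K4me3 (24 tested) or H3K9Ac (22 tested). Those with an unadjusted p under 0.05 numbered 1, 3 and 1, beside 7.73%, 7.91% and 8.02% of all genes tested, and they are named here after their values were seen. RBL2, which encodes the pocket protein p130, had Pol II ranks of 18.9% and 33.0% in parental cells and 49.7% and 94.4% in SAP30-KO1 (adjusted p = 0.644, limma), and H3K4me3 ranks of 9.57% and 7.87% against 31.1% and 19.5% (adjusted p = 0.579, limma). The other genes of its arm, 16q, shifted by a median of 8.17 and 4.77 percentage points in those marks. H3K4me3 at CDK2, the kinase that CDKN1A and CDKN1B products inhibit, went from 9.94% and 5.31% to 26.4% and 23%, and at FBXW7, a cyclin E ubiquitin ligase subunit, from 2.71% and 1.44% to 12.1% and 6.84% (both adjusted p = 0.579, limma), where their arms, 12q and 4q, shifted by medians of 2.05 and 5.49. H3K9Ac at E2F4 went from 4% and 2.26% to 8.64% and 6.32% (adjusted p = 0.611, limma), beside a 16q median of 1.77. In all of these both SAP30-KO1 libraries ranked worse.

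In parental cells the best SAP30 summits of that list, by mean rank, were those of CDC25A, a phosphatase that activates CDK2, at 0.0643% and 0.101%, and CCNE2, which encodes cyclin E2, at 0.153% and 0.191%, both also named after their values were seen.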
